A study of Gallus gallus with 6 samples.

Results

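Wnt and hedgehog signalling genes were followed in the growing feathers of adult chickens. They were picked by name from 2 tables of RNA-seq values, as entries that name a Wnt or hedgehog ligand, a receptor, a secreted or membrane inhibitor, or a component that carries the signal inside the cell. This gave 51 genes, 40 of the Wnt pathway and 11 of the hedgehog pathway, of 9691 gene names listed in either table. The first table lists 21 of them and the second 45, with 15 in both. The match was by the start of the name, so it also took in *APCDD1*, *APC2*, *PTCHD2* and *PTCHD4*. An entry that merges several genes was skipped, which left out *DVL3*, listed together with *EIF2B5*.

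The feathers came from the leg, the wing and the neck of untreated wild-type adult birds whose strain label is domesticus, and the wing feathers are labelled as contour feathers. Each region has 2 labelled replicates, 6 libraries in all. By the series design, each sample was feather epithelium pooled from 5 feathers in their growth phase after the mesenchymal pulp had been removed, whereas the methods of the paper name the whole follicle or pulp and dermal papilla taken by dissection. The first table carries replicate 1 of all regions and the second replicate 2. No source says that the replicates came from separate birds, so p-values measure only the spread between these libraries, which may be technical. In the second table the column header of each region has a different number after the word chicken, whose meaning is not stated. If the numbers stand for birds, region and bird cannot be told apart in that table.

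Wnt ligands are secreted glycoproteins that bind Frizzled receptors, with LRP5 and LRP6 as co-receptors. In the canonical branch this stops a complex of Axin, APC and GSK3 from degrading β-catenin, which then acts in the nucleus with the factors LEF1 and TCF7. Sonic hedgehog (SHH) binds Patched receptors and so releases Smoothened (SMO), which acts through the GLI factors, held back by SUFU. In the feather follicle *SHH* is known as a marker of the marginal plate between forming barbs, and Wnt signals are known to act in feather bud formation and in the axis of the vane.

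The first table holds whole numbers of a unit that is not stated, and the second FPKM, fragments mapped per kilobase of transcript and scaled to the mapped fragments of the library. Levels of both tables were never averaged, levels were compared between genes only in FPKM, and the depth of the libraries is unknown. A fitted change below is, however, the mean of the log2 differences in both tables. Values are summed up on the scale of log2(value + 1). On this scale the median wing-to-neck difference of all entries with a mean of at least 1 was -0.08 and 0.39 in the first and second tables, that of leg to neck -0.31 and -0.03, and that of leg to wing -0.23 and -0.44. The fitted changes and calls below are not corrected for these medians and are differences from 0. The median change of all genes tested is given with the counts, and calls after centring each library on its median are given further below. The labelled epithelium was checked with 17 epithelial markers, of which each table lists 10. *CDH1*, which encodes E-cadherin, had an FPKM of 95.01 in leg, 125 in wing and 108 in neck. The keratin genes *KRT14* (281 in leg, 972 in wing and 275 in neck) and *KRT15* (133, 526 and 119) were far higher in wing, with leg close to neck. Most other markers differed less. Counted over all listed markers, keratins included, 5 of 10 in the first table and 7 of 10 in the second were higher in wing than in neck. Their median log2 differences were -0.09 and 0.33, close to those of all entries. The summed values were 1148 in leg, 1461 in wing and 1352 in neck, and in FPKM 1934, 3503 and 2187. *KRT5*, a keratin of basal cells, is listed at 0 in all 3 FPKM libraries although it had values of 244, 519 and 307 in leg, wing and neck in the first table, so a 0 in the second table may be a failed estimate.

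Mesenchyme markers moved with the regions and stand beside every result below. Of 20 such markers, 7 are listed in the first table, with summed values of 384 in leg, 635 in wing and 202 in neck. There 6 of 7 were higher in wing and in leg than in neck, while *VIM* ran the other way (69 in leg, 62 in wing and 75 in neck). The second table lists 17, with a summed FPKM of 985 in leg, 1853 in wing and 426 in neck, none of them at 0 in any library. All 17 were higher in wing than in neck (median log2 difference 2.49) and higher in leg than in neck (median 1.33), as were all 6 listed of 10 blood and endothelium markers, with a summed FPKM of 22.0 in leg, 73.6 in wing and 6.83 in neck. Of 11 pigment-cell markers the first table lists 7, with summed values of 194 in leg, 820 in wing and 273 in neck. The second lists 9, with a summed FPKM of 199 in leg, 489 in wing and 229.7 in neck, where *PMEL* is at 0 in all 3 libraries and *TYRP1* ran the other way (20.2 in leg, 0.203 in wing and 13.7 in neck). The sums of pigment-cell markers thus had the order wing over neck over leg in both tables, as had those of the epithelial markers. In the first table the epithelial order rested on *KRT5* (244 in leg, 519 in wing and 307 in neck), without which neck has the highest sum. The part of these cell types in the results was not tested. Roles of genes given below are those known in vertebrates, mostly from mouse. Fewer cells of a type and less RNA per cell cannot be told apart in such samples.

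The regions were compared with limma, a linear model fitted across all 2138 genes listed once in both tables with a mean of at least 1 in each, with the replicate number, which is also the table, as a block. Changes are given as log2(value + 1), so that those of low genes are understated, and a gene was called at a Benjamini-Hochberg adjusted p of 0.05. For wing against neck 7 of the 15 members in both tables were called, beside 28.3% of all genes tested. *APCDD1*, *FZD9*, *WNT11*, *WNT6* and *WIF1* rose in wing (5 of 15, with 19.9% of all genes called as higher), and *FZD1* and *TCF7* fell (2 of 15, with 8.37% called as lower). *FZD9* and *WNT11* reached the lowest mean of the first table, 9.67, only through their wing values. The counts of members called between wing and another region are therefore partly set by which genes are listed. For leg against neck 3 of 15 were called, beside 12.7% of all genes: *APCDD1*, *WIF1* and *TCF7* fell in leg (10.9% of all genes were called as lower) and 0 rose (1.82% were called as higher). For leg against wing 5 of 15 were called, beside 47.8% of all genes. *APCDD1*, *FZD9*, *WNT11* and *WIF1* fell in leg (4 of 15, with 41.7% of all genes called as lower) and *FZD1* rose (1 of 15, with 6.03% called as higher). The median log2 change of the 15 members was 0.21, -0.11 and -0.27 in these comparisons, against 0.14, -0.20 and -0.33 for all genes tested. The comparisons share libraries in pairs and are not independent. limma estimated an infinite prior, so the spread used for a gene was that of genes at a like level and its own replicates carried no weight. With each gene's own spread in its place 0 members and 0 of all 2138 genes were called by limma in any comparison. An unadjusted p under 0.05 was found for 3, 0 and 4 members, and for 437, 291 and 710 of the 2138 genes.

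**Figure D1:**
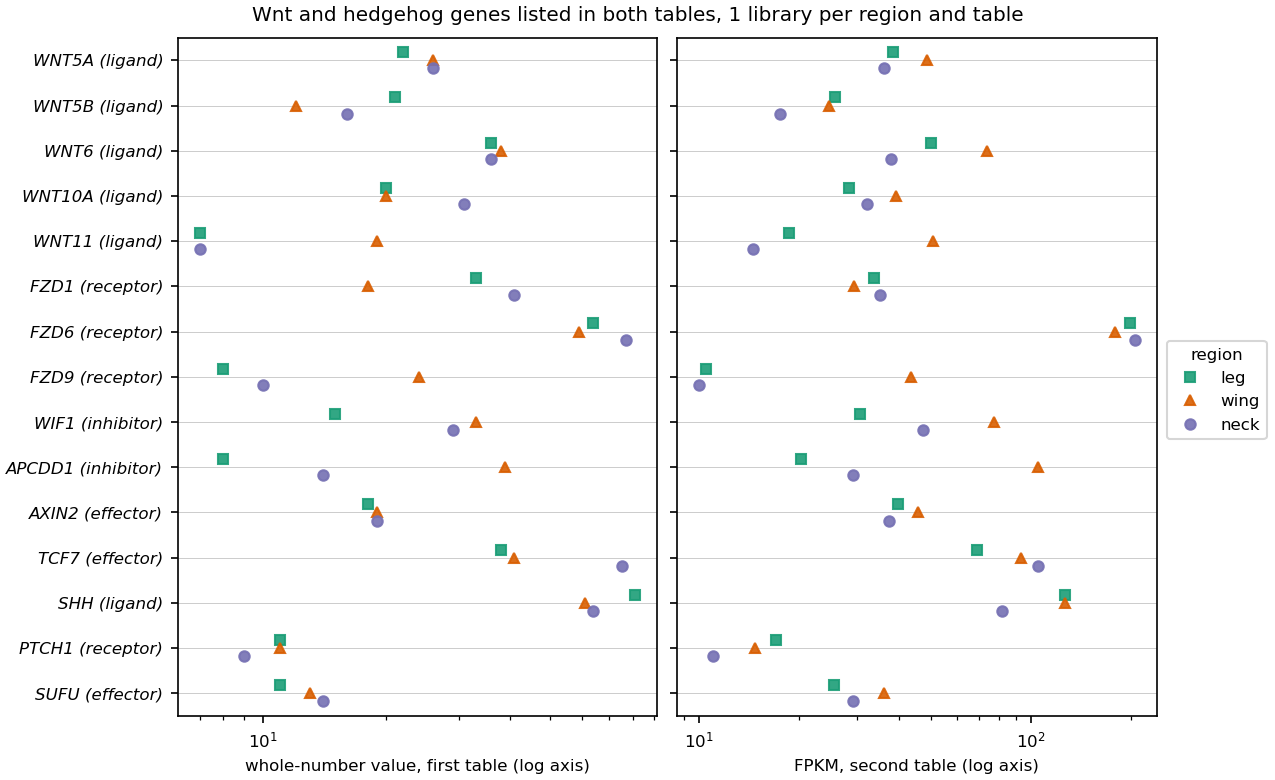
Values of the 15 members listed in both tables, as whole-number values in the first table (left, log axis) and FPKM in the second (right, log axis). Each symbol is 1 library (leg squares, wing triangles, neck circles, set slightly apart in height), and *APCDD1*, *FZD9* and *WNT11* have their wing symbol well to the right of the others in both panels.

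Ligands. Among the Wnt ligands listed in both tables, *WNT11* stood out in wing, while *WNT5A*, *WNT5B*, *WNT6* and *WNT10A* had more even levels. *WNT11*, a ligand known for non-canonical signalling in cell movement (chromosome 1, bases 193935829 to 193969798 by the first table), had values of 7 in leg, 19 in wing and 7 in neck. Its FPKM was 18.6 in leg, 50.8 in wing and 14.5 in neck. Wing was thus the highest region in both tables, and leg and neck lay close together. *WNT11* rose in wing against neck by 1.53 ± 0.20 (SE) on the log2 scale (limma, adjusted p = 1.05e-12) and fell in leg against wing (-1.36 ± 0.20, limma adjusted p = 2.49e-10). No entry of the first table has a mean below 9.67, and the leg and neck values of *WNT11* there lie under that. It thus reached the fit only through its wing value, and its calls are not independent of that.

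*WNT6* and *WNT10A* are neighbours on chromosome 7, 3691 bases apart in the first table, and both are epithelial ligands of the canonical branch in skin. *WNT6* had values of 36 in leg, 38 in wing and 36 in neck and an FPKM of 50.1, 73.8 and 37.9. It was called for wing against neck (0.51 ± 0.17, limma adjusted p = 0.0119), a call lost in the fit on 4 libraries, and the difference was 0.08 and 0.94 in the first and second tables. *WNT10A* had values of 20 in leg, 20 in wing and 31 in neck, and an FPKM of 28.3, 39.1 and 32.2. Its wing value was the higher one against neck in the second table and the lower one in the first, and it was not called in any comparison.

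*WNT5A* and *WNT5B*, which signal mainly outside the β-catenin branch, were not called in any comparison. *WNT5A* had values of 22 in leg, 26 in wing and 26 in neck, with an FPKM of 38.3, 48.5 and 36.0. *WNT5B* had 21 in leg, 12 in wing and 16 in neck, with an FPKM of 25.7, 24.6 and 17.6. Leg was its highest region in both tables, which held for 2 of the 15 members (the other is *SHH*) and for 2.71% of all genes tested. The fitted change of *WNT5B* for leg against neck was 0.45 ± 0.19 (limma adjusted p = 0.0918).

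*WNT16* was listed in the first table only and ran the other way, with a value of 22 in leg, 7 in wing and 22 in neck. Its log2 difference for wing against neck was -1.52, the lowest of the 21 members of that table. With 1 library per region, no error can be attached to this or to any value of a gene in a single table.

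The ligands found in the second table alone were low to moderate, and several were highest in wing. *WNT7A*, a ligand of dorsal ectoderm in the limb, had an FPKM of 1.37 in leg, 16.4 in wing and 1.92 in neck, a log2 difference of 2.57 for wing against neck. *WNT3A*, the standard canonical ligand, had 2.19 in leg, 8.99 in wing and 1.38 in neck. *WNT4* had 4.41 in leg, 16.9 in wing and 4.90 in neck. All 3 stand over the upper quartile of the wing-to-neck differences of all entries, which was 0.73. *WNT7B* had 4.66 in leg, 10.2 in wing and 6.14 in neck, and *WNT9A* 0.174 in leg, 1.77 in wing and a listed 0 in neck. *WNT2B* (9.40 in leg, 6.98 in wing and 6.29 in neck) and *WNT8A* (7.89, 8.67 and 6.01) were lowest in neck. Their log2 differences for leg against neck, 0.51 and 0.34, lie over the upper quartile of all entries (0.16). Of the 11 Wnt ligands that averaged at least 1 FPKM, 9 were highest in wing, 2 in leg and 0 in neck, where 76.4% of all entries of that table were highest in wing. *WNT3* was listed at 0 in all 3 libraries, and *WNT11B* only in leg, at 0.157.

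**Figure D2:**
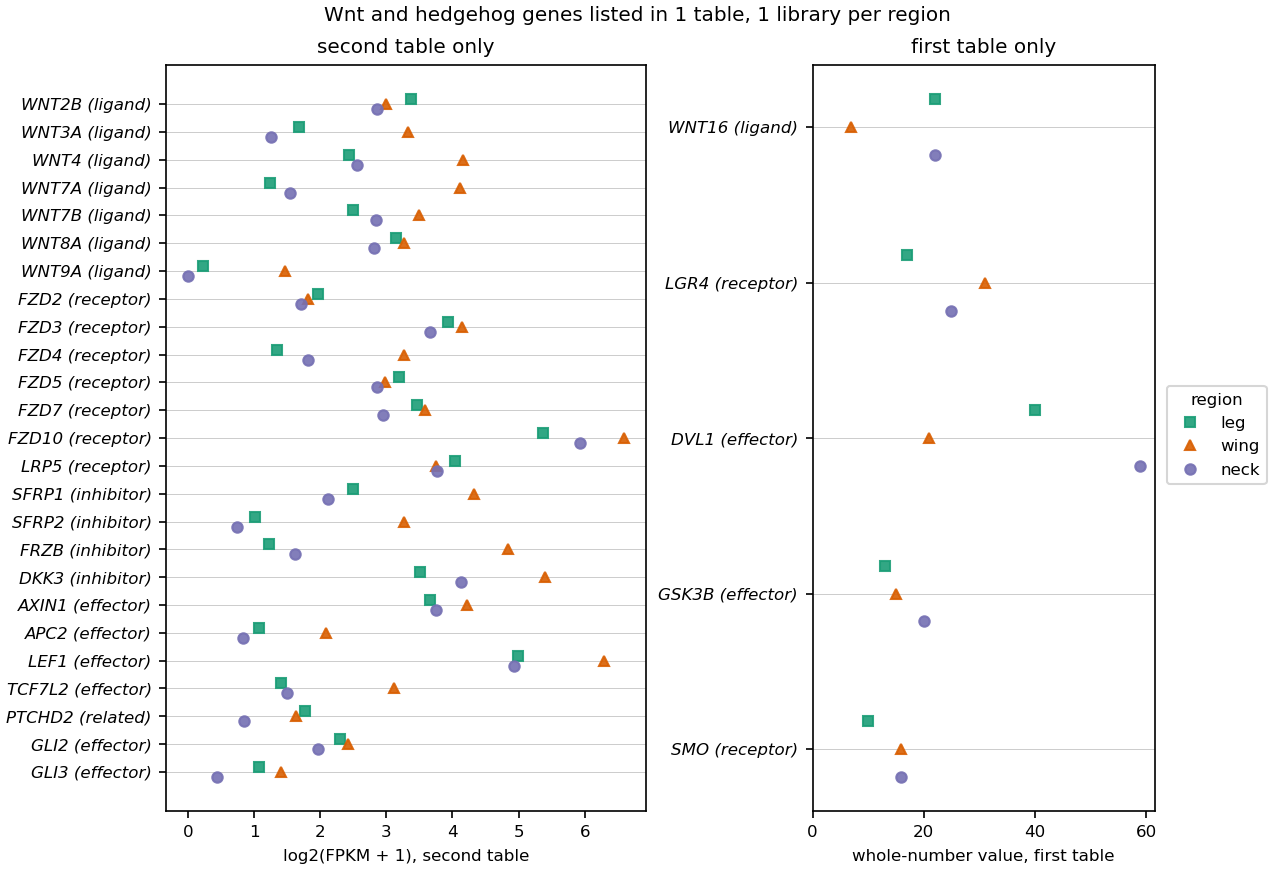
Values of the members listed in a single table, 1 library per region (leg squares, wing triangles, neck circles, set slightly apart in height). The left panel gives log2(FPKM + 1) for members of the second table with at least 1 FPKM in a library, where *FRZB*, *WNT7A* and *SFRP2* have the widest gap between wing and the other regions, and the right panel gives the whole-number values of 5 members of the first table alone, where *WNT16* and *DVL1* are lowest in wing.

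Receptors. The Frizzled receptors did not share a pattern: *FZD9* was high in wing, *FZD1* was low there, and *FZD6*, the most abundant member, differed less. *FZD6* had an FPKM of 199.7 in leg, 179 in wing and 206 in neck, the highest of the 45 members in each library of the second table, and values of 64, 59 and 77 in the first. Its wing value was the lowest of the 3 regions in both tables, and it was not called in any comparison. After each library was centred on its median it was called as lower in wing against neck (-0.42, limma adjusted p = 0.00477) and as higher in leg against wing (0.48, adjusted p = 0.00243). *FZD9* (chromosome 19, bases 264593 to 266693) had values of 8 in leg, 24 in wing and 10 in neck, and an FPKM of 10.5, 43.7 and 9.99. It rose in wing against neck by 1.60 ± 0.21 (limma, adjusted p = 3.63e-13) and fell in leg against wing (-1.71 ± 0.21, limma adjusted p = 4.80e-15). Like *WNT11*, *FZD9* reached the lowest mean of the first table, 9.67, only through its wing value, so its calls are not independent of its listing.

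*FZD1* (chromosome 2, bases 22161946 to 22166582) had values of 33 in leg, 18 in wing and 41 in neck. Its FPKM was 33.6 in leg, 29.3 in wing and 35.1 in neck, so the order of the regions was the same and the gap much smaller. *FZD1* fell in wing against neck (-0.70 ± 0.17, limma adjusted p = 0.000273) (-1.14 and -0.26 in the first and second tables), and rose in leg against wing by 0.52 ± 0.17 (adjusted p = 0.00625). Both calls were lost when only the 4 libraries of the compared regions were fitted.

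In the second table alone, *FZD10* had an FPKM of 40.2 in leg, 95.4 in wing and 60.2 in neck, and *FZD4* 1.53 in leg, 8.67 in wing and 2.53 in neck. *FZD7*, a receptor of canonical signals in many epithelia, had 10.04 in leg, 10.99 in wing and 6.72 in neck. *FZD3* (14.3, 16.8 and 11.6), *FZD5* (8.18, 6.88 and 6.26) and *FZD2* (2.89, 2.53 and 2.28) differed by at most 0.49 on the log2 scale between any pair of regions. The co-receptor *LRP5* had 15.4 in leg, 12.5 in wing and 12.7 in neck. The median wing-to-neck difference of the 10 receptors of that table was 0.30, below the 0.39 of all entries. *LGR4*, the R-spondin receptor, was listed in the first table only, with a value of 17 in leg, 31 in wing and 25 in neck.

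Inhibitors. The 6 members that inhibit Wnt signalling were each highest in wing in the second table, where 76.4% of all entries were. *NOTUM*, a secreted Wnt inhibitor that is no member and is named after its values were seen, had values of 23 in leg, 16 in wing and 23 in neck in the first table. *APCDD1*, a membrane protein that binds ligand and LRP5 (chromosome 2, bases 98537291 to 98568148), had values of 8 in leg, 39 in wing and 14 in neck. Its FPKM was 20.3 in leg, 105 in wing and 29.0 in neck. The 3 regions had the same order in both tables, with wing far above neck and neck above leg. *APCDD1* rose in wing against neck by 1.62 ± 0.17 (limma, adjusted p = 2.91e-19), fell in leg against neck (-0.62 ± 0.17, limma adjusted p = 0.00512) and fell in leg against wing (-2.23 ± 0.17, limma adjusted p = 5.71e-36), the largest change among the 15 members. Its call for leg against neck was lost when the libraries were rescaled to equal totals (-0.46, limma adjusted p = 0.0658).

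*WIF1*, a secreted protein that binds Wnt ligands (chromosome 1, bases 33881873 to 33923705), had values of 15 in leg, 33 in wing and 29 in neck and an FPKM of 30.6, 77.3 and 47.4. The order was that of *APCDD1*. *WIF1* fell in leg against neck (-0.76 ± 0.17, limma adjusted p = 0.000201) and in leg against wing (-1.20 ± 0.17, adjusted p = 1.67e-11). It rose in wing against neck by 0.44 ± 0.17 (adjusted p = 0.0342), a call lost in the fit on 4 libraries.

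The other inhibitors have values in the second table only. *FRZB*, a secreted Frizzled-related protein, had an FPKM of 1.34 in leg, 27.8 in wing and 2.08 in neck, a log2 difference of 3.22 for wing against neck and the largest of the 39 members with a mean of at least 1. *SFRP1* had 4.64 in leg, 19.0 in wing and 3.34 in neck, and *SFRP2* 1.01 in leg, 8.62 in wing and 0.668 in neck. *DKK3*, a member of the Dickkopf family whose effect on Wnt signalling is less certain, had 10.4 in leg, 41.0 in wing and 16.4 in neck.

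In FPKM, the median wing-to-neck difference of the 6 inhibitors was 2.01, against 0.39 for all entries, and 5 of the 6 were over the upper quartile of all entries. One of these, *SFRP2*, reached the mean of 1 FPKM needed for this summary only through its wing value. In the same libraries the mesenchyme markers had a median of 2.49. For leg against neck the inhibitors had a median of -0.45, with 4 of 6 under the lower quartile of all entries (-0.21), the mesenchyme markers a median of 1.33 (17 of 17 higher in leg) and the pigment-cell markers a median of -0.10 (2 of 9 higher in leg). *FRZB*, *DKK3*, *WIF1* and *APCDD1* were lower in leg than in neck in that table, and *SFRP1* and *SFRP2* were higher in leg by 0.38 and 0.27.

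**Figure D3:**
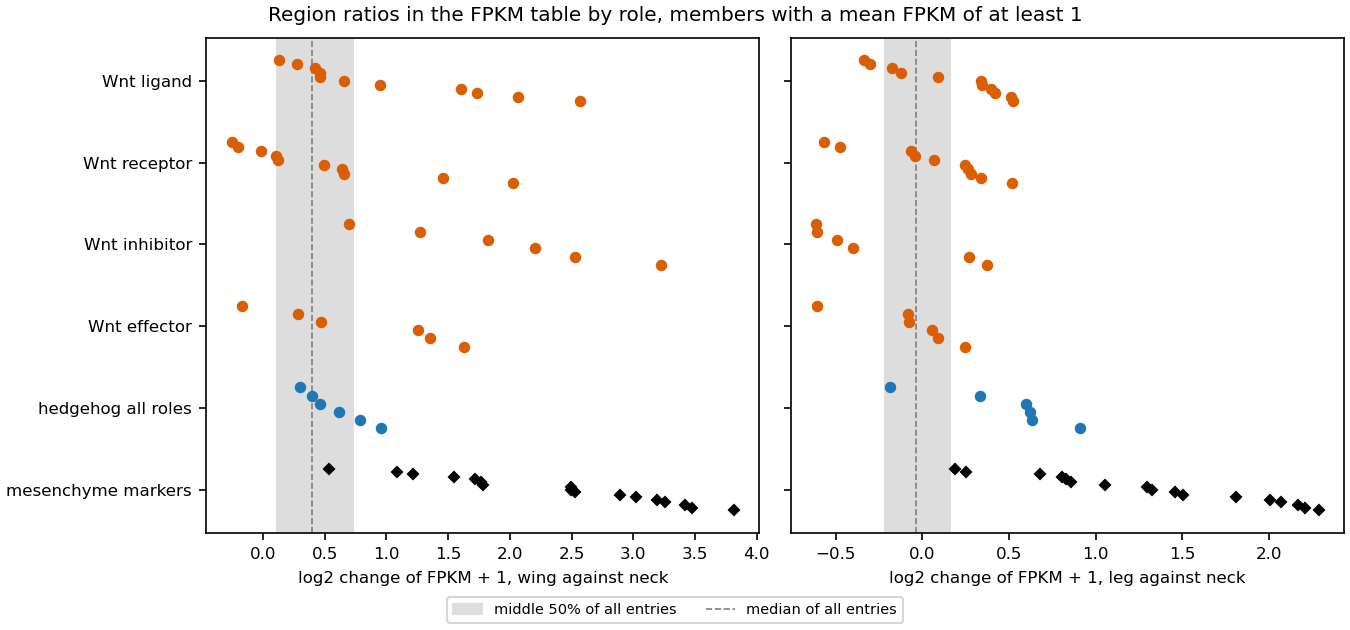
Differences in log2(FPKM + 1) between wing and neck (left) and leg and neck (right) in the second table, 1 symbol per gene, for members that averaged at least 1 FPKM, grouped by role and for the 17 mesenchyme markers. *SFRP2*, *APC2* and *GLI3* reached that average only through their wing values. The grey band spans the middle 50% of all entries and the dashed line their median, and the inhibitors lie to the right with the mesenchyme markers for wing against neck, with a median of 2.01, and mostly to the left for leg against neck, with a median of -0.45.

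Effectors. The nuclear factors of the pathway differed in direction between regions: *TCF7* was highest in neck, and *LEF1* and *TCF7L2* in wing. *TCF7* (chromosome 13, bases 15995988 to 16065233) had values of 38 in leg, 41 in wing and 75 in neck. Its FPKM was 68.8 in leg, 93.6 in wing and 105 in neck, the same order. *TCF7* fell in leg against neck (-0.78 ± 0.18, limma adjusted p = 0.000317) and in wing against neck (-0.51 ± 0.18, adjusted p = 0.0169). The change for wing against neck was -0.86 and -0.17 in the first and second tables, and its call was lost in the fit on 4 libraries.

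*LEF1*, another factor that works with β-catenin, is listed in the FPKM table alone, with an FPKM of 30.7 in leg, 77.2 in wing and 29.6 in neck, and *TCF7L2* had 1.66 in leg, 7.68 in wing and 1.81 in neck. *AXIN2*, a scaffold of the β-catenin destruction complex and a common readout of canonical signalling, was nearly even. It had values of 18 in leg, 19 in wing and 19 in neck and an FPKM of 39.9, 45.7 and 37.4. Its fitted change was 0.14 ± 0.17 in wing against neck, 0.01 ± 0.17 in leg against neck and -0.13 ± 0.17 in leg against wing, none of them called (limma adjusted p = 0.579, 0.983 and 0.529). These p-values do not show that the levels were equal, and after centring on the median *AXIN2* was called as higher in leg against wing (0.21, limma adjusted p = 0.0425).

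*AXIN1*, the constitutive scaffold, had an FPKM of 11.6 in leg, 17.6 in wing and 12.4 in neck, and *APC2* 1.11 in leg, 3.24 in wing and 0.776 in neck. In the first table alone, *DVL1*, which passes the signal on from Frizzled, had a value of 40 in leg, 21 in wing and 59 in neck, and the kinase gene *GSK3B* 13 in leg, 15 in wing and 20 in neck. *DVL1* was thus lowest in wing, by a log2 difference of -1.45 against neck. The merged entry of *DVL3* and *EIF2B5*, which is no member, had 71 in leg, 36 in wing and 68 in neck, and how its value divides between them is unknown.

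Hedgehog genes. *SHH* and its receptor gene *PTCH1*, itself a known target of the pathway, stood higher in leg than in neck in both tables, but neither was called in the fit described above. *SHH* (chromosome 2, bases 8111072 to 8124583) had values of 81 in leg, 61 in wing and 64 in neck. Its FPKM was 126.8 in leg, 126.6 in wing and 82.1 in neck, the second highest of the 45 members in leg and wing. Leg was the highest region in both tables, and wing stood with neck in the first table and with leg in the second. The fitted change for leg against neck was 0.48 ± 0.18 (limma adjusted p = 0.0618), higher in leg in both tables. After each library was centred on its median, *SHH* was called as higher in leg against neck (0.69, limma adjusted p = 0.00668). It was then also called as higher in leg against wing (0.55, limma adjusted p = 0.00344).

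*PTCH1* (chromosome Z, bases 41769252 to 41840163) had values of 11 in leg, 11 in wing and 9 in neck and an FPKM of 17.1, 14.7 and 10.97. Neck was the lowest region in both tables, the only member for which this held, as it did for 4.35% of all genes tested. Its fitted change was 0.43 ± 0.23 for leg against neck (limma adjusted p = 0.204). *SUFU* had values of 11 in leg, 13 in wing and 14 in neck and an FPKM of 25.4, 36.1 and 29.1, leg being lowest in both tables, and was not called in any comparison.

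In the first table alone, *SMO* had a value of 10 in leg, 16 in wing and 16 in neck. In the second, *GLI2*, the main activating factor in skin, had an FPKM of 3.90 in leg, 4.35 in wing and 2.90 in neck, and *GLI3*, mainly a repressor, 1.11 in leg, 1.65 in wing and 0.360 in neck. *GLI1* and *PTCHD4* were listed at 0 in all 3 libraries, and *IHH* only in wing, at 0.0617. *PTCHD2*, which RefSeq names *DISP3*, had 2.40 in leg, 2.12 in wing and 0.808 in neck. Of the 6 hedgehog genes that averaged at least 1 FPKM, 6 were higher in wing than in neck and 5 higher in leg than in neck, where 81.6% and 44.8% of all entries were. *GLI3* reached that average only through its wing value.

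**Figure D4:**
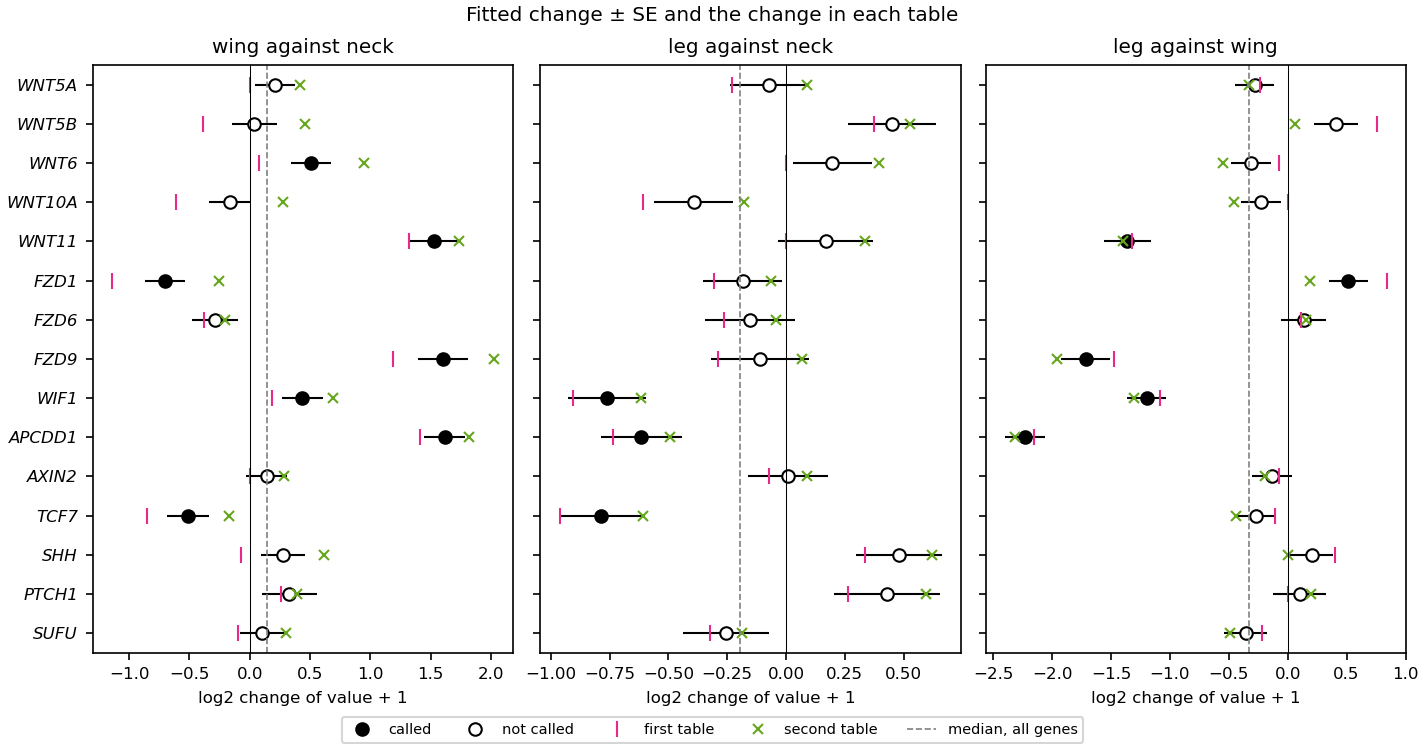
Log2 changes of the 15 members in both tables, in 1 panel per comparison of regions. Circles with bars are the fitted change ± SE (filled where called), the vertical tick and the cross are the difference in the first and the second table, and the dashed line is the median of all 2138 genes. The tables lie furthest apart for *FZD1* between wing and neck, at -1.14 and -0.26.

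The calls between regions moved with the scaling of the libraries. After each library was centred on its median, 8, 7 and 10 of the 15 members were called in the comparisons of wing with neck, leg with neck and leg with wing, beside 48.4%, 20.0% and 54.5% of all genes. The 7, 3 and 5 members called before were all among them. For leg against neck *SHH* (0.69, adjusted p = 0.00668), *PTCH1* (0.64, 0.0164), *WNT5B* (0.66, 0.0259) and *WNT11* (0.38, 0.0322) were then called as higher in leg, so that 4 were higher and 3 lower in place of 0 and 3, with 10.5% and 9.49% of all genes called as higher and lower. For leg against wing 6 were higher and 4 lower in place of 1 and 4, beside 27.5% and 27.0% of all genes. For wing against neck 5 were higher and 3 lower, beside 25.2% and 23.2%.

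Of the 15 members, 9 had a wing-to-neck difference of the same sign in both tables, 10 a leg-to-neck and 13 a leg-to-wing difference. The share over all genes was not counted, so this is no result about the members. The medians of all entries differed in sign between the tables for wing to neck (-0.08 and 0.39) but not for leg to wing (-0.23 and -0.44). Wing was the highest region in both tables for 5 members (*APCDD1*, *FZD9*, *WIF1*, *WNT11* and *WNT6*), beside 40.1% of all genes tested. Leg was the lowest in both for 4 (*APCDD1*, *SUFU*, *TCF7* and *WIF1*), beside 49.4%. Neck was the highest in both for 3 (*FZD1*, *FZD6* and *TCF7*), beside 14.1%.

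Other genes of the pathways, from lists of 72 Wnt and 33 hedgehog genes that are not members, were counted in the same fit. Of the Wnt list 17 could be tested. Between wing and neck 4 were called as higher and 2 as lower in wing, beside 19.9% and 8.37% of all genes. Between leg and neck 2 were called as higher and 2 as lower in leg, beside 1.82% and 10.9%, and between leg and wing 1 and 6, beside 6.03% and 41.7%. Of the hedgehog list 3 could be tested, with 1 higher and 1 lower, 0 and 1, and 1 and 1 in the same comparisons. Besides the genes described next, and named after their values were seen, the intracellular genes *CSNK1E* (-0.59), *TNKS* (-0.58) and *KIF3A* (-0.59) fell in wing against neck. The difference of *TNKS* was -1.07 in the first table and only -0.09 in the second. In leg against wing *CTBP1* (-0.46) and *RAC1* (-0.60) fell, and *TNKS* (0.42) and *KIF3A* (0.41) rose. *SERPINF1*, an anti-angiogenic factor that can bind LRP6, had values of 24 in leg, 68 in wing and 6 in neck and an FPKM of 53.8, 185 and 10.2. It rose in wing against neck by 3.68 ± 0.17 (limma, adjusted p = 3.63e-99) and in leg against neck (2.06 ± 0.17, adjusted p = 1.11e-31), and fell in leg against wing (-1.61 ± 0.17, limma adjusted p = 3.90e-20). Its order in both tables, wing over leg over neck, was that of the summed mesenchyme markers, and *SOSTDC1* and *IGFBP4*, described next, shared it. The share of all genes with this order was not counted.

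*SOSTDC1*, a secreted antagonist of Wnt and BMP signals, had values of 29 in leg, 36 in wing and 16 in neck and an FPKM of 82.9, 103 and 37.3. It rose in wing against neck by 1.28 ± 0.17 (limma, adjusted p = 7.97e-13) and in leg against neck (0.98 ± 0.17, adjusted p = 4.89e-07). The change of *SOSTDC1* for leg against wing was not called (-0.31 ± 0.17, limma adjusted p = 0.120). *IGFBP4*, which can bind Frizzled and LRP6, had values of 14 in leg, 28 in wing and 11 in neck and an FPKM of 15.8, 52.2 and 9.49. It rose in wing against neck by 1.81 ± 0.19 (limma adjusted p = 9.37e-20) and fell in leg against wing (-1.31 ± 0.19, limma adjusted p = 9.90e-11). The change of *IGFBP4* for leg against neck was not called (0.50 ± 0.19, limma adjusted p = 0.0581).

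*WLS*, the carrier that brings Wnt ligands to the cell surface, had values of 21 in leg, 55 in wing and 35 in neck and an FPKM of 37.3, 117 and 51.1. It rose in wing against neck by 0.91 ± 0.17 (limma, adjusted p = 1.23e-06), fell in leg against neck (-0.58 ± 0.17, limma adjusted p = 0.00855) and fell in leg against wing (-1.49 ± 0.17, limma adjusted p = 6.49e-17). The call for leg against neck was lost on the same rescaling to equal totals of shared genes (-0.41, limma adjusted p = 0.0852). *GPC1*, a heparan sulphate proteoglycan that binds hedgehog and other ligands, had values of 11 in leg, 34 in wing and 22 in neck and an FPKM of 24.0, 88.3 and 38.1. Its changes were 0.90 ± 0.17, -0.79 ± 0.17 and -1.69 ± 0.17, all called. Both genes had the order wing over neck over leg in both tables, as had *APCDD1*, *WIF1* and the summed pigment-cell markers. The summed epithelial markers had it too, in the first table only through *KRT5*. Wing was the highest region in both tables for 40.1% of all genes tested, and leg the lowest for 49.4%. *CTNNBIP1*, which keeps β-catenin from TCF factors, had values of 26 in leg, 36 in wing and 38 in neck and an FPKM of 75.6, 129.5 and 113, and fell in leg against neck (-0.55 ± 0.17, limma adjusted p = 0.0166) and in leg against wing (-0.61 ± 0.17, adjusted p = 0.00152). Its call for leg against neck was also lost on rescaling (-0.38, limma adjusted p = 0.126).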

How the data were processed

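RNA-seq values of 6 libraries (leg, wing and neck feathers, 2 labelled replicates each) were taken from 2 deposited tables. The first holds whole-number scores deposited by the authors with a gene name and a locus, whose unit and normalization are not stated and which were not treated as counts. No entry has a mean below 9.67. The second holds FPKM deposited by the authors, with no loci, and a column of the authors' mean, which was not used, nor were 101 rows without values. The paper names the Galgal4 assembly, and the submitters' processing notes name TopHat2 2.1.0 and Cufflinks 2.2.1. The loci include 46 entries on chromosome 33, so the assembly behind the printed coordinates is uncertain. The annotation is not given in the sources used here.

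Genes were matched by name, with older symbols through the RefSeq table of GRCg7b (names only). Of 2189 genes listed once in both tables, 2138 with a mean of at least 1 in each were fitted with limma (lmFit, eBayes with trend) on log2(value + 1), with the replicate number as a block and a Benjamini-Hochberg adjusted p of 0.05. The block was planned in the main fit because the tables differ in unit. Deviations from the region means correlated at 0.919 to 0.971 between libraries of the same number. Tables that differ in unit can give this alone, so it does not show that the libraries were paired in any other way. The script was also run on simulated data that had no shift shared by all genes of a library. Such runs do not show how it performs on tables with such shifts, as these have. The members and gene lists were chosen with earlier results of these data known. Members in both tables were named in full, those in 1 table where a library reached 5 (first table) or 1 FPKM, and other pathway genes as the 5 largest calls per comparison with the same direction in both tables. The values of 1 member are not reported here. Alternatives were no block, quantile normalization, centring on the median, rescaling to equal totals, a pseudocount of 0.1, no filter, 4 libraries, a robust prior, no moderation, identical names and each replicate left out. Tools were limma 3.58.1 under R 4.3.3, and Python 3.11.15 with pandas 2.3.3, numpy 2.4.6 and matplotlib 3.10.9.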

Additional observations from a re-analysis of the deposited data

How the results depend on the processing

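The calls rest on the replicate block, which is also the table, and on the pooled spread. Without the block limma called 0 of 15 members in each comparison, beside 0.421%, 0% and 0.327% of all genes. An unadjusted p under 0.05 was then found for 2, 0 and 2 members, and for 43, 12 and 38 of all 2138 genes. With no moderation limma called 0 as well, beside 0 of 2138 genes, and 3, 0 and 4 members and 437, 291 and 710 genes had an unadjusted p under 0.05. With only the 4 libraries compared, wing against neck gave 3 members in place of 7, beside 9.31% of all genes. Leg against neck gave 5, 7 and 5 members in place of 3 with quantile normalization, centring and rescaling to equal totals, beside 21.4%, 20.0% and 7.95% of all genes. All 3 earlier calls are among them, except after rescaling, where 2 are and *APCDD1* is lost. Leg against wing gave 10 and 10 in place of 5 with quantile normalization and centring, beside 56.2% and 54.5% of all genes. A pseudocount of 0.1, no filter, a robust prior and identical names kept these 3 counts within 1.5 times their value. Leaving out a replicate removes a whole table, after which limma has no residual degrees of freedom and gives no calls. Members detected at 1 or more in all libraries that list them numbered 41, and from 21 to 35 with a replicate left out, because fewer genes are then listed.

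No called change of a member, or of another pathway gene described with its values, turned its direction. *CSNK1E*, *TNKS*, *KIF3A*, *CTBP1* and *RAC1* were not followed through the alternatives. Among changes not called, those for wing against neck turned to -0.022 (*AXIN2*), -0.0752 (*SUFU*) and -0.200 (*WNT5B*) with quantile normalization and to -0.0281 (*SUFU*) and -0.0922 (*WNT5B*) with centring. For leg against neck they turned to 0.0075 (*FZD1*), 0.0674 (*FZD6*) and 0.124 (*WNT5A*) with quantile normalization, to 0.0281, 0.0591 and 0.141 with centring, where *FZD9* gave 0.102, and to 0.0147 (*FZD6*), 0.0427 (*FZD9*) and 0.0922 (*WNT5A*) with rescaling. For leg against wing they turned to 0.213 (*AXIN2*), 0.0774 (*TCF7*), 0.0995 (*WNT10A*), 0.0625 (*WNT5A*) and 0.0304 (*WNT6*) with quantile normalization, to 0.209, 0.0698, 0.116, 0.0609 and 0.0293 with centring, and to 0.0344 (*AXIN2*) with rescaling. *AXIN2* was then called with quantile normalization and centring (limma adjusted p = 0.0375 and 0.0425). Quantile normalization and centring move the median of all genes close to 0 by construction. No depth is known, so no detection limit is given.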
